A study of Mus musculus with 4 samples.

Results

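The 10 gene symbols of RefSeq type lncRNA that took the most reads in a LARP7 RNA immunoprecipitation (RIP) of mouse testis were Gm21269, Gm5878, 1700029M20Rik, Gm10619, Gm30132, 4933440M02Rik, 1700042G15Rik, Gm24463, D130017N08Rik and Gm2762. They were chosen by symbol, for high expected counts (estimated read counts per gene model) with a like course over the libraries, and they correspond to 11 of the 50600 gene models counted, because D130017N08Rik has 2 models. The values that chose them are therefore given as a description, without a test. The tested libraries were 2 LARP7 RIPs (antibody ab134757, replicates 1 and 2), and their references were 2 RIPs with non-specific IgG (replicates 1 and 2). All 4 came from testes of 8-week-old C57BL/6 mice with no stated genotype or treatment. The labels do not say whether the replicates are separate animals, so a p-value here measures only the spread between these libraries.

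A RIP pulls a protein out of a lysate with an antibody on beads, together with the RNAs it holds, and the IgG arm gives the background of RNAs that stick to beads or antibody. LARP7, of the La-related family, is known for holding the 3′ end of 7SK RNA and for acting on the spliceosomal U6 RNA. Long non-coding RNAs (lncRNAs) are transcripts without a recognised coding frame, and the testis, above all in its meiotic and post-meiotic germ cells, is known for expressing many of them. Roles of the 10 symbols in the testis are not stated in the sources used here, so they are described by locus, length and reads. Inserts of 15 to 300 nt were selected for a small RNA kit, so a model of several kilobases is seen here through short fragments.

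Libraries held 6918040 and 6502682 expected counts with LARP7, against 6994514 and 4411271 with IgG. The mean fragment, read from the difference between length and effective length of long models, was 65.8 and 63.8 nt with LARP7, against 64.2 and 61.8 nt with IgG. The tissue label was borne out by its markers: all 5 germ cell and spermatocyte markers and all 6 spermatid markers had counts in every library. The 6 spermatid markers summed to 222 and 173 CPM (counts scaled to a fixed library total) with LARP7, against 1785 and 1574 CPM with IgG. The 6 Sertoli markers summed to 28.8 and 24.6 CPM with LARP7, against 146 and 104 CPM with IgG, and the 5 Leydig markers to 24.7 and 29.2 CPM with LARP7, against 79.6 and 69.6 CPM with IgG. Of the 4 peritubular and vascular markers 3, of the 6 Sertoli markers 4 and of the 4 blood markers 1 had counts in every library, and 0 of all these markers were at 0 in all 4. These sums are scaled by library totals, on which 63.9% of the models tested were lower in both LARP7 libraries. With TMM scaling (trimmed mean of M values, which sets libraries on the bulk of their genes), spermatid markers summed to 400 and 258 CPM with LARP7, against 975 and 1098 CPM with IgG. Sertoli markers then summed to 51.7 and 36.7 CPM with LARP7, against 79.9 and 72.6 CPM with IgG. The Leydig sums overlapped, at 44.4 and 43.6 CPM with LARP7, against 43.5 and 48.6 CPM with IgG. The 5 germ cell and spermatocyte markers summed to 73.8 and 69.1 CPM of library totals with LARP7, against 292 and 193 CPM with IgG. With TMM scaling they summed to 133 and 103 CPM with LARP7, against 160 and 135 CPM with IgG. The part of the germ cell, spermatid and Sertoli differences in the values of the lncRNA models was not tested. All 4 libraries come from whole testis, so a low level of any RNA may be that of few cells or of little RNA per cell, which cannot be told apart.

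Gm24463 went against its class. RefSeq lists the symbol as a lncRNA locus of 8621 nt (GRCm38.p6, chr9:89066829-89075449, plus strand), but the model that was counted under this name, ENSMUSG00000096473.1, was 72 nt long. Its expected counts were identical in all 4 libraries to those of Snord50a, another 72-nt model and a box C/D small nucleolar RNA (U50) that guides methylation of 28S ribosomal RNA. A RefSeq snoRNA of 72 nt, LOC115487270, lies inside the Gm24463 locus at chr9:89075336-89075407. Its value is thus the same number as that of a snoRNA, and the reads of these 2 models cannot be told apart. It is named Gm24463 below and each summary that it decides is given without it. Of all 12234 models tested, 1.23% shared identical counts with another tested model.

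The start of the RefSeq locus was also looked at, and whether it has to do with the identical counts was not tested. Snhg5 is the gene known to carry U50 in its introns. Its promoter window is shown with the best-aligned of the Gm24463 windows, because the 2 are alike over most of their length. In the 2 lines, from RefSeq on GRCm38.p6, capitals mark bases that are the same in a local alignment and lower case marks the rest. The Gm24463 stretch is chr9:89066744-89066963 on the plus strand and the Snhg5 stretch is chr9:88522900-88523125 on the minus strand, both 5′ to 3′.
Gm24463: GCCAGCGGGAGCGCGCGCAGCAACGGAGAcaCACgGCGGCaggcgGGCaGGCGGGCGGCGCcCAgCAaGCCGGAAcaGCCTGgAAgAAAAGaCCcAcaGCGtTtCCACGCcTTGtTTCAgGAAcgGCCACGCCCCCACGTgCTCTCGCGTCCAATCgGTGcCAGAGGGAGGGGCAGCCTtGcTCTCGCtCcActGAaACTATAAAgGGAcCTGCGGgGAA
Snhg5: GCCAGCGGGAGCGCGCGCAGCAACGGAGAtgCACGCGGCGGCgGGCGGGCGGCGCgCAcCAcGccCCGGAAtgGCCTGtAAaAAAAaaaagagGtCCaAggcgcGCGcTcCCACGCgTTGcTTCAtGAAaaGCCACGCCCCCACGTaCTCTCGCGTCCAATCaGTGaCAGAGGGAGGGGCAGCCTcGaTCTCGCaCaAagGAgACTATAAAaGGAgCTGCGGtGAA
The alignment held 214 paired bases, 180 of them identical, and 18 gap bases, an identity of 77.6% with gaps counted. Among the other 32850 promoter windows of 300 bases in the RefSeq table, 6 shared a word of 20 bases with that of Snhg5. Of these 6, 2 were windows of Gm24463, with 12 and 10 shared words, and the highest number, 22, was that of 4930520O04Rik, a lncRNA on chromosome 9. Snhg5 itself had 1393 and 886 counts with LARP7, against 454 and 447 with IgG, far fewer than the 72-nt models.

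The lncRNA model with the most counts was Gm21269 (ENSMUSG00000108448.2), a model of 12456 nt that ranked 10 among all models. RefSeq places it at chr7:73825924-73836549, plus strand. Its neighbour Gm10619 (ENSMUSG00000074067.9) lies at chr7:73808222-73816503 on the minus strand, so the 2 loci point away from each other with 9421 bases between their starts. Gm21269 had 78914 and 142464 counts with LARP7, against 45183 and 43337 with IgG. Gm10619 had 21615 and 38082 counts with LARP7, against 11461 and 12122 with IgG. Both were highest in LARP7 replicate 2, and the LARP7 and IgG counts did not overlap. Scaled by TMM, Gm21269 averaged 26599 ± 8619 CPM with LARP7 and 5193 ± 2352 CPM with IgG (SD, n = 2 each; log2 fold change 2.36, SE 0.83). Gm10619 averaged 7178 ± 2208 CPM with LARP7 and 1406 ± 723 CPM with IgG (SD, n = 2 each; log2 fold change 2.35, SE 0.78).

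The promoter windows of this pair, from 250 bases before to 50 bases after the RefSeq start, are printed because the 2 models had the closest course of all pairs of members. The best local alignment between them (matching bases less mismatches and gap costs) scored only 12 in either orientation. Whether the windows have to do with the course was not tested. They come from RefSeq on GRCm38.p6, at chr7:73825674-73825973 on the plus strand and chr7:73816454-73816753 on the minus strand. Both strands were searched for 4 motifs, and capitals mark the matches. The TATA box was searched as TATAAA and the MYB core as AACNG. The other motifs were the CCAAT box, as spelled, and the cyclic AMP response element, TGACGTCA.
Gm21269: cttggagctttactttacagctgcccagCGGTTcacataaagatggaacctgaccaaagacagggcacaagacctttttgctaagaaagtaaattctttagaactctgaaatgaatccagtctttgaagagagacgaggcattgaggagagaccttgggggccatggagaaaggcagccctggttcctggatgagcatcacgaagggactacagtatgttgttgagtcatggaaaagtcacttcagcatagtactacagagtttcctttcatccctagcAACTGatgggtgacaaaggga
Gm10619: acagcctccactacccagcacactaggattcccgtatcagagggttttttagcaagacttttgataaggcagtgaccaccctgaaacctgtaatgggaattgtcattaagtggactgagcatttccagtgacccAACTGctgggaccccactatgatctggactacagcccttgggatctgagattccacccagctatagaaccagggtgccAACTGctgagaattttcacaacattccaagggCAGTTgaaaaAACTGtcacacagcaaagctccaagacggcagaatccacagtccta
All capitals in these windows are AACNG matches, 2 in Gm21269 and 4 in Gm10619. With Gm24463 left out, 8 of the symbols had a window in the table: 7 held AACNG, 5 CCAAT, 2 TATAAA and 0 TGACGTCA. Over all 32851 windows the shares were 80.3% for AACNG, 37.4% for CCAAT, 13.6% for TATAAA and 1.79% for TGACGTCA. A match is a run of letters and not a site, and overlapping matches of the same or different motifs were each counted.

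Gm5878 (ENSMUSG00000072952.6, chromosome 6) had 32156 and 47324 counts with LARP7, against 14084 and 12711 with IgG. 1700029M20Rik (ENSMUSG00000086788.2, chromosome 4) had 26096 and 51593 counts with LARP7, against 14610 and 12899 with IgG. Both were above the IgG libraries in each LARP7 library, with log2 fold changes of 2.63 (SE 0.78) and 2.55 (SE 0.79). Gm30132 (ENSMUSG00000110670.1, chromosome 8) had 23601 and 36962 counts with LARP7, against 9864 and 10980 with IgG. 4933440M02Rik (ENSMUSG00000045928.2, chr7:125331782-125349786, far from the Gm21269 pair) had 19020 and 40589 counts with LARP7, against 10519 and 11119 with IgG. These 2 again had their highest value in LARP7 replicate 2, with log2 fold changes of 2.54 (SE 0.79) and 2.47 (SE 0.80).

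1700042G15Rik (ENSMUSG00000087044.1, chr4:57359792-57364292, minus strand) had the largest LARP7 over IgG log2 fold change of the 10 models chosen by abundance. It had 21171 and 39482 counts with LARP7, against 7903 and 6363 with IgG. That was 7281 ± 2517 CPM with LARP7 and 812 ± 275 CPM with IgG (TMM-scaled; SD, n = 2 each; log2 fold change 3.16, SE 0.79). Its IgG replicate 2 to replicate 1 ratio, 1.28 in CPM of library totals, was the lowest of the 11. Gm2762 (ENSMUSG00000107008.3, chromosome 13) closed the choice, with 14733 and 23580 counts with LARP7, against 8548 and 7025 with IgG (log2 fold change 2.38, SE 0.74). It had 53886 counts over the 4 libraries, and Gm21284, the first lncRNA model outside the choice, had 46079.

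D130017N08Rik (chr5:143758354-143764942, plus strand) was counted under 2 Ensembl models. The longer, ENSMUSG00000097287.2, had 15245 and 28293 counts with LARP7, against 10161 and 9438 with IgG (log2 fold change 2.19, SE 0.76). The shorter, ENSMUSG00000105354.1, a model of 506 nt, had 831 and 3050 counts with LARP7, against 179 and 524 with IgG (log2 fold change 3.24, SE 0.96). The shorter model took 5.17% and 9.73% of the counts of both in the LARP7 libraries, against 1.73% and 5.26% in the IgG libraries, and these shares overlapped. It ranked 35 among lncRNA models, so it is a member by its symbol and not by its abundance. The first 1400 bases of the locus overlap Usp42, a deubiquitinase gene, and how counting treated strand is not given in the sources used here. Usp42 had 21 and 19 counts with LARP7, against 173 and 84 with IgG.

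Gm24463 had 20102 and 24604 counts with LARP7, against 8617 and 11322 with IgG (log2 fold change 2.14, SE 0.78). Its LARP7 replicates lay closest together of all 11 models, with a replicate 2 to replicate 1 ratio of 1.30 in CPM of library totals. The other 10 models had ratios of 1.57 to 3.91.

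Together the 11 models took 3.95% (95% Wilson interval 3.94 to 3.97) and 7.32% (7.30 to 7.34) of the counts with LARP7, against 2.02% (2.01 to 2.03) and 3.12% (3.11 to 3.14) with IgG. The intervals cover at most counting error, and they are too narrow where reads are PCR copies and not independent molecules. Of all reads on lncRNA models they held 66.5% ± 2.18 with LARP7 and 56.7% ± 4.02 with IgG (SD, n = 2 each). Without Gm24463 the others held 62.4% ± 3.07 of the same reads with LARP7 and 52.6% ± 2.89 with IgG (SD, n = 2 each). The lowest of these shares was 50.6%, in IgG replicate 1. Chosen for their counts, the members thus held most reads of the models matched to a RefSeq lncRNA in each library. In IgG replicate 1 without Gm24463 this was only just so. A RefSeq match was found for 35715 of the 50600 models (70.6%), and the others have no type and are not in these shares. The sum of the 11 models had a log2 fold change of 2.46 with TMM and 1.13 with library totals. It lay between 2.04 without IgG replicate 1 and 3.08 without IgG replicate 2.

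All 11 models passed the filter on low counts. In TMM-scaled CPM all 11 were higher in both LARP7 libraries than in both IgG libraries, as were 32.9% of the 12234 models tested, and in CPM of library totals all 11 were again, as were 9.7% of them, while 35.5% and 63.9% of the models tested were lower in both LARP7 libraries on these 2 scales. Since counts chose the members, nothing is read from these shares. In TPM (counts divided by effective length and scaled to a fixed total) the LARP7 and IgG libraries overlapped for all 11. In TPM, 1.51% of the models tested had both LARP7 libraries above both IgG libraries and 75% had both below.

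**Figure D1:**
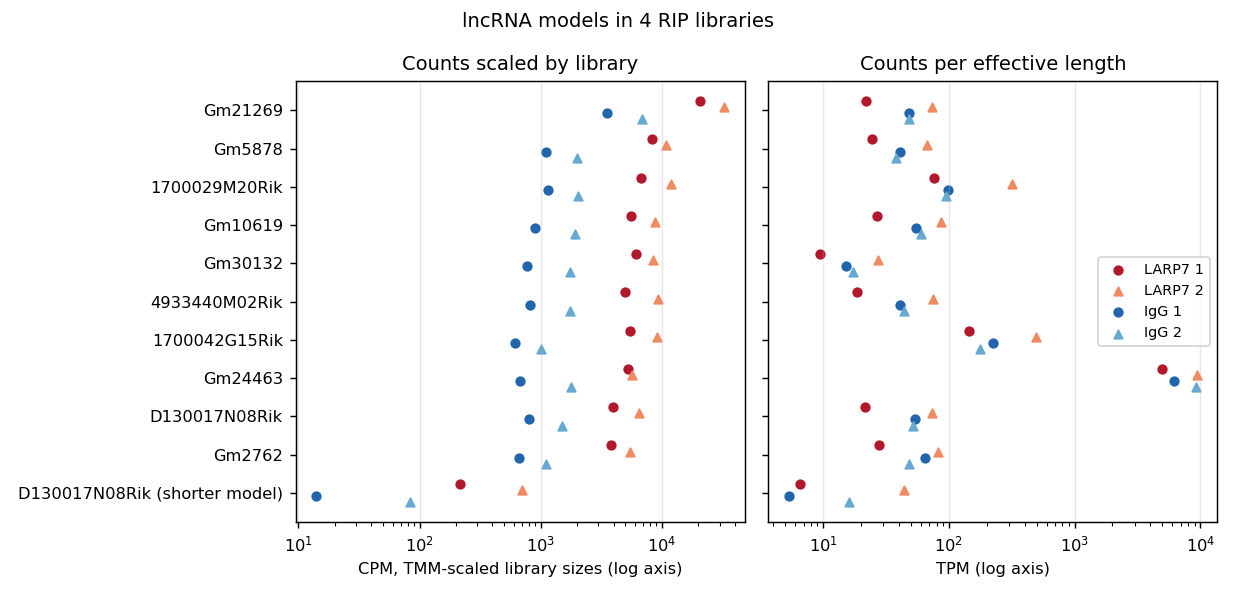
Levels of the 11 models in the 4 libraries (LARP7 in reds, IgG in blues, circles for replicate 1 and triangles for replicate 2), as TMM-scaled CPM on the left and as TPM on the right, both on log axes. On the left the LARP7 points lie above the IgG points in every row. On the right LARP7 replicate 1 lies below or near the IgG points and replicate 2 above or near them, so the groups overlap in every row, and Gm24463, with a length of 72 nt, stands far to the right.

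Whether the models ran in parallel was measured by the distance between courses. Each course was the log2 CPM in the 4 libraries minus its own mean, and the distance between 2 courses was the root mean square of their differences, on the log2 scale. With 4 libraries no correlation is given. The median distance over the 55 pairs was 0.23, and the smallest, 0.05, was that of Gm21269 and Gm10619. The ratio of their counts was 3.65 and 3.74 with LARP7, against 3.94 and 3.58 with IgG.

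Some models lay farther from the rest. Without Gm24463 and the shorter D130017N08Rik model, an alternative chosen after seeing the data, the median distance over 36 pairs was 0.17 and the largest 0.48. The shorter D130017N08Rik model lay 0.84 from the median course, 1700042G15Rik 0.37 and Gm24463 0.24, and the other 8 models lay between 0.03 and 0.15. The median course was 0.91 and 1.53 with LARP7, against -1.77 and -0.72 with IgG, so replicate 2 was above replicate 1 within each antibody as well.

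**Figure D2:**
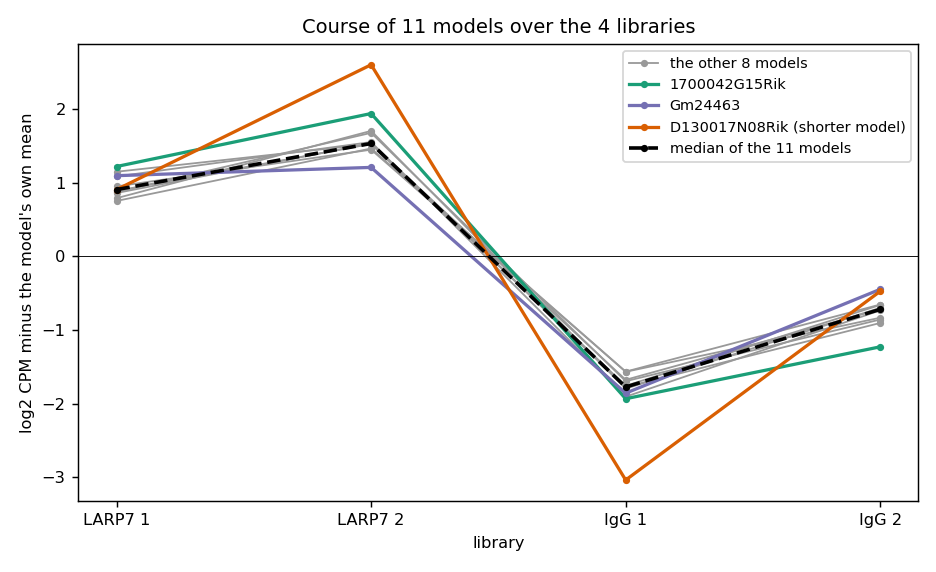
Course of each of the 11 models over the 4 libraries, as log2 TMM-scaled CPM minus the model's own mean, with the median course dashed. The other 8 models lie close to the median, 1700042G15Rik is higher with LARP7 and lower in IgG replicate 2, Gm24463 is flat between the LARP7 replicates, and the shorter D130017N08Rik model swings more widely.

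Models of other classes also lay near this course. Without Gm24463 and the shorter D130017N08Rik model, the member farthest from the median course was 1700042G15Rik, at 0.37. Of the 12223 tested models outside the choice, 4.06% lay within that distance, and of the 270 that had at least as many counts as the least abundant member, 25.9% did. In that abundant set 16 of 24 lncRNA models, 27 of 53 protein-coding models and 5 of 51 snoRNA models lay within it. These shares are a description, since the median course came from the members. About as many of these protein-coding models lay inside that distance as outside it, and few of the snoRNA models lay inside. In CPM of library totals, LARP7 replicate 2 was above replicate 1 in 61.4% of the 12223 models and in 69.3% of the 270. Within the abundant set it was so in 79.2% of the lncRNA, 66.0% of the protein-coding and 58.8% of the snoRNA models.

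Among these 270 models, the 5 nearest to the median course over the 4 libraries were Zfp652, RP23-440F7.2, Asb1, 4932702P03Rik and Gm21284, at distances of 0.05, 0.06, 0.06, 0.08 and 0.08. Zfp652 encodes a zinc finger protein and Asb1 a SOCS box protein with ankyrin repeats. RP23-440F7.2 carries a clone name and matched no RefSeq symbol. Asb1 had 10239 and 17385 counts with LARP7, against 5378 and 4957 with IgG. RP23-440F7.2 had 27189 and 49673 counts with LARP7, against 15134 and 16145 with IgG, and would rank among the members by counts. In both, LARP7 replicate 2 was highest and the groups did not overlap in counts. Nearness to the members' course chose these models, so nothing is read from that likeness.

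Shared reads were looked for in the posterior SD, the uncertainty RSEM gives to a count because reads map to several models. This quantity was not used in the choice. For 1700029M20Rik, 4933440M02Rik, 1700042G15Rik and Gm2762 it was 0 in all 4 libraries. For Gm21269, Gm5878, Gm10619 and Gm30132 it reached at most 0.02% of the count. The counts of these 8 thus carried little uncertainty of assignment among the counted models in each of the 4 libraries. How many of their reads map to several models is not known from this SD, and the Gm21269 counts were not whole in any library. This SD does not cover sharing with sequences that were not counted.

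The remaining 3 differed. In the longer D130017N08Rik model the posterior SD was 0.29% and 0.27% of the count with LARP7, against 0.38% and 0.43% with IgG. In the shorter model it was 5.11% and 2.31% with LARP7, against 16.9% and 7.05% with IgG. The SDs of the 2 models were close in size, at 44.7 and 42.5 counts in LARP7 replicate 1. In Gm24463 the posterior SD was 5.74% and 16.5% of the count with LARP7, against 21.2% and 13.3% with IgG. That of Snord50a was the same to 3 digits in each library. The posterior means of these 2 models differed from their common expected count in opposite directions. In IgG replicate 1, Gm24463 had a posterior mean of 9666 and Snord50a of 7568. Another pair of 72-nt models, Snord50b and Gm26135, also had identical counts to each other, 15424 and 19303 with LARP7, against 7044 and 8783 with IgG.

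A posterior SD above 5% of the count in any library was found in 2 of the 11 models. It was found in 33.1% of the 12234 models tested and in 25.3% of the 281 models with at least as many counts as the least abundant member.

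**Figure D3:**
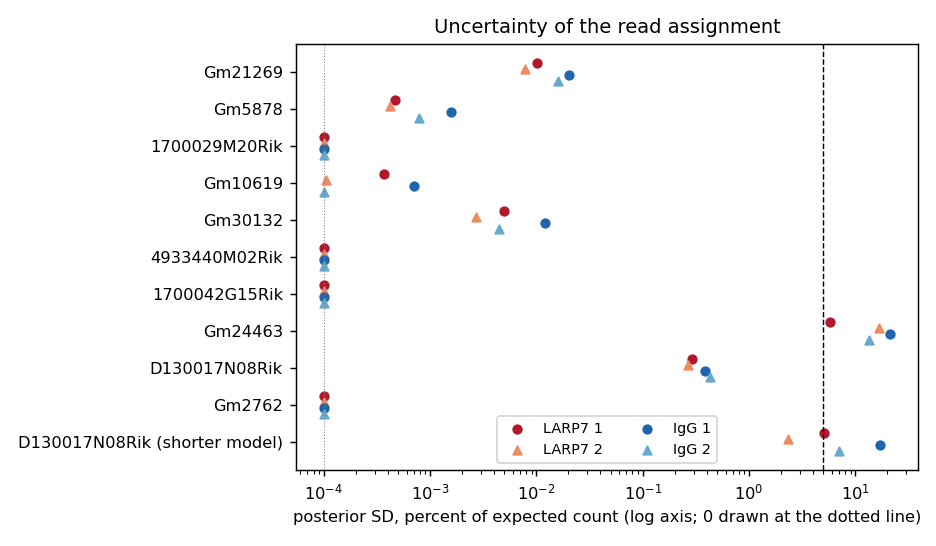
Posterior SD of the count as a percent of the expected count, for the 11 models in the 4 libraries, on a log axis. Values of 0 are drawn at the dotted line and the dashed line marks 5%. Only Gm24463 and the shorter D130017N08Rik model have points beyond the dashed line, and 4 models are at 0 in every library.

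The order of the models by TPM was not their order by counts. The 11 lengths ran from 72 to 12456 nt. Gm21269 ranked 1 of the 11 by counts but 7 by TPM in all 4 libraries. It had 22.1 and 73.9 TPM with LARP7, against 48.2 and 48.1 TPM with IgG. 1700042G15Rik, a model of 532 to 574 nt, had 145 and 496 TPM with LARP7, against 223 and 178 TPM with IgG. Per length it thus stood above Gm21269 in every library, although it had fewer counts. Gm30132, a model of 8669 to 8737 nt, had 9.45 and 27.5 TPM with LARP7, against 15.2 and 17.4 TPM with IgG. That was the lowest TPM of the 11 in LARP7 replicate 2 and the second lowest in each other library.

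Gm24463 led by TPM, with 4953 and 9413 TPM with LARP7, against 6183 and 9231 TPM with IgG. Its effective length was 14.1 and 16.8 nt with LARP7, against 18.4 and 16.9 nt with IgG, which is 19.6% to 25.6% of its 72 nt, and TPM divides by this length. In LARP7 replicate 1 it had 0.255 times the counts of Gm21269 and 224 times its TPM. It held 92.9% and 87.5% of the TPM of the 11 models with LARP7, against 90.5% and 93.9% with IgG. Without it, the 10 longer models held 0.0378% and 0.134% of all TPM with LARP7, against 0.0645% and 0.0598% with IgG. The same 10 models took 3.66% and 6.94% of the counts with LARP7, against 1.89% and 2.87% with IgG. Most of the TPM of these models was thus that of 1 short RNA.

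TPM also changed the comparison of the antibodies. On the log2(TPM + 1) scale the LARP7 minus IgG difference of the 11 models ran from -0.41 in the longer D130017N08Rik model to 0.82 in the shorter, with a median of -0.15. It was above 0 in 5 models and below 0 in 6, where the TMM-scaled counts gave log2 fold changes of 2.14 to 3.24. The median of all models tested was -0.29 in TPM with 1 added and -0.05 with TMM. The TPM median of all models depended on the number added: with 0.1 it was -1.25, while the 11 models ran from -0.42 to 0.87. In LARP7 replicate 2 the TPM values were 1.90 to 6.76 times those of replicate 1. Gm5878, for example, had 24.4 and 66.4 TPM with LARP7, against 40.7 and 38.1 TPM with IgG. In 10 of the 11 models LARP7 replicate 1 lay below both IgG libraries and LARP7 replicate 2 above both. In the shorter D130017N08Rik model LARP7 replicate 1 lay between the IgG libraries and replicate 2 above them.

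1 member differed in length between the antibodies by far more than the others. RSEM weights a model's length by the abundance of its isoforms, so a change of length within a model is a change of the isoforms to which reads were assigned. 1700029M20Rik (chr4:135626655-135630198, plus strand), with 4 isoforms, had lengths of 1255 and 1101 nt with LARP7, against 2009 and 1928 nt with IgG. Reads with LARP7 were assigned more to shorter isoforms of this lncRNA, a log2 difference in length of -0.74. The posterior SD is that of the whole model, so the uncertainty of the split among its isoforms is not known. The other 7 models with several isoforms had differences of -0.02 to 0.08. Lengths of the antibodies did not overlap in 5 of these 8 models, against 35.8% of the 8774 tested models with several isoforms. Among the 42 models with several isoforms and at least 1000 counts in each library, lengths did not overlap in 50%, and 1 model, 1700029M20Rik itself, had a log2 difference that large (2.38%). Over all 8774 models, of which most had fewer counts, 10.8% had one. The gene was singled out after its values were seen, and the smallest exact two-sided permutation p for 2 libraries against 2 is 0.333.

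The shift raised the TPM of 1700029M20Rik with LARP7. It had 76.2 and 319 TPM with LARP7, against 99.2 and 94.98 TPM with IgG, a difference of 0.68 on the log2(TPM + 1) scale, the second highest of the 11. Its log2 fold change in counts, 2.55, was near the median of the 11 models, 2.47.

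**Figure D4:**
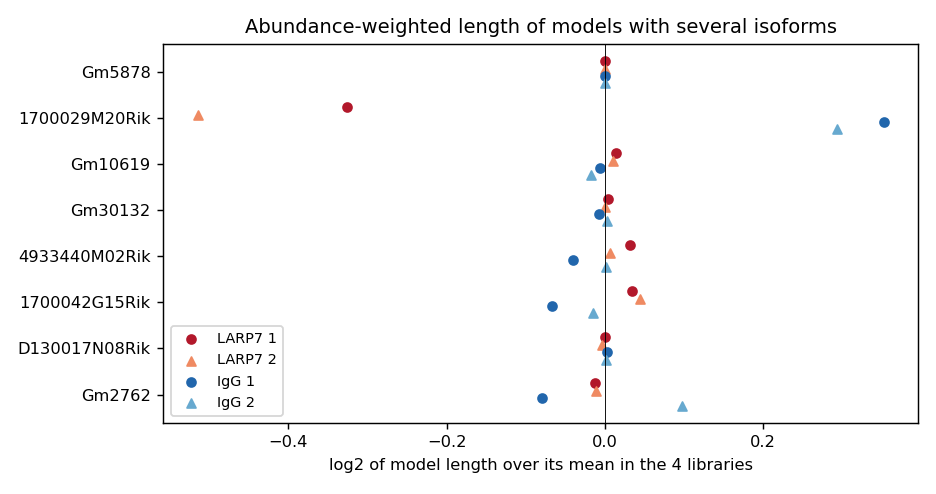
Length of the 8 models with several isoforms in each library, as log2 of the length over its mean in the 4 libraries. In 1700029M20Rik the LARP7 points (reds) lie left of 0 and the IgG points (blues) right of 0, with a gap of 0.74 between the means. In the other models the differences between the antibodies are -0.02 to 0.08.

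Loci and models did not match in extent for all symbols. The counted Gm21269 model of 12456 nt was longer than its RefSeq locus of 10626 nt, and the Gm30132 model of 8669 to 8737 nt was longer than its RefSeq locus of 4076 nt (chr8:93423302-93427377, minus strand). The coordinates given here are those of RefSeq and need not bound the reads. A further 4 loci contain another RefSeq gene that was not counted under its symbol: Gm18257, a pseudogene, in Gm21269, Gm52864 in Gm5878, Gm39085 in 4933440M02Rik and the protein-coding Gm38564 in Gm2762.

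The other lncRNA models gave a measure that the choice did not use. Of 3408 such models 492 could be tested, and 100 of these (20.3%) were higher and 28 (5.69%) lower with LARP7 (edgeR quasi-likelihood test with Benjamini-Hochberg adjustment over all 12234 models, threshold 0.05). Over all models tested 14.5% were higher and 9.69% lower. The median log2 fold change of the other lncRNA models was 0.65, beside -0.05 over all models. It was -0.76 with library totals (all models -1.47). Over the 1979 other lncRNA models with any count it was -0.13 with no filter and 0.011 with DESeq2. Fits with 1 library left out filtered the models anew, so their medians and counts are not those of the same 492 models. Without LARP7 replicate 2 the median was 0.016 over 687 other lncRNA models (all models -0.12). Without LARP7 replicate 1 it was 0.25 over 719 (all models -0.16). The counts were 35 higher and 4 lower without LARP7 replicate 2, 12 lower without LARP7 replicate 1 and 18 lower without IgG replicate 2, and scaling by library totals gave 23 higher and 158 lower. Of the 10 with the most counts, 9 had log2 fold changes of 2.07 to 2.73, and Gm15564 had -1.26 (SE 0.71, adjusted p = 0.212 by edgeR), with 2837 and 1094 counts with LARP7, against 16761 and 6670 with IgG. The 9 include the snoRNA host Snhg1 and 1110038B12Rik, in which LARP7 replicate 1 was the higher replicate, with 19430 and 12514 counts with LARP7, against 6620 and 6531 with IgG.

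Among named classes of lncRNA, the non-coding snoRNA host genes and the nuclear RNAs Malat1 and Neat1 were set beside the members. Of the 18 host models found, 11 were tested, 7 rose and 0 fell with LARP7 by the same edgeR threshold, beside 14.5% higher and 9.69% lower of all models tested, and their median log2 fold change was 1.85. With library totals 1 host rose, with a median of 0.52. Limma on log2(TPM + 1) called 0 of the 11 hosts higher and 0 lower, with a median of -0.13 (all models -0.29). On log2(TPM + 0.1) it called 0 higher and 1 lower, with a median of -0.26 (all models -1.25). Leaving out LARP7 replicate 1, 3 of 15 hosts rose. Leaving out LARP7 replicate 2, 4 of 16 rose, and leaving out IgG replicate 1, 2 of 13 rose, with 0 lower in each case. Malat1, a nuclear speckle RNA, had 250 and 110 counts with LARP7, against 1778 and 889 with IgG. Its log2 fold change was -1.63 (SE 0.57), with an edgeR adjusted p of 0.0597. Neat1, the scaffold of paraspeckles, had 131 and 161 counts with LARP7, against 320 and 139 with IgG, a log2 fold change of 0.59 (SE 0.39) with an edgeR adjusted p of 0.28. Both had fewer counts than each of the 10 abundant members in every library, and more in IgG replicate 1 than the shorter D130017N08Rik model. The known LARP7 partner 7SK (Rn7sk) had 316542 and 931240 counts with LARP7, against 38611 and 61786 with IgG, a log2 fold change of 4.53 (SE 1.07). The Rnu6 model of U6 had 186 and 797 counts with LARP7, against 9.91 and 4.55 with IgG, a log2 fold change of 7.17 (SE 0.83), with a posterior SD of up to 537% of its count. The log2 fold changes of all 11 models lay below both values.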

How the data were processed

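RNA from 2 LARP7 and 2 IgG RIPs of mouse testis was measured. The lysate held 150 mM NaCl, binding took 4 h and washes held 500 mM NaCl, per the labels' protocols. The submitters' processing notes name cutadapt, Bowtie2, RSEM and mm10, without a version or setting. Per the file headers, the authors deposited for each gene model an expected count (RSEM splits multiply mapping reads between models), its posterior mean, a posterior SD (a score in counts), the TPM, and the length and effective length in nt. Of all values above 0 in a library, 38.5% to 44.9% were not whole (tolerance 1e-09).

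Expected counts were rounded and tested with edgeR 4.0.16 in R 4.3.3: filterByExpr, TMM, robust quasi-likelihood F tests, two-sided, Benjamini-Hochberg over 12234 models, threshold 0.05, on all 4 libraries with antibody as the term. TMM factors were 0.558 and 0.673 for LARP7 and 1.85 and 1.44 for IgG, so log2 fold changes with TMM lie above those with library totals. SE is the unshrunk log2 fold change over the root of F. Courses used counts plus 0.5. The fit was tested on simulated data. Biotypes and loci come from a RefSeq table of GRCm38.p6, matched by symbol for 35715 models (70.6%), 938 through a synonym. Promoter windows are RefSeq's. Alternatives were library totals, DESeq2 size factors, DESeq2 1.42.0, no filter, limma 3.58.1 on log2(TPM + 1) and log2(TPM + 0.1), each library left out and a replicate block.

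The members and all lists were chosen with earlier results of these data known. Named genes were the members, the 5 models nearest in course, the 10 other lncRNA models with the most counts, models with identical counts, overlapping RefSeq genes and the listed hosts, nuclear lncRNAs and LARP7 RNAs; of 19 listed hosts, 18 were found.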

Additional observations from a re-analysis of the deposited data

How the results depend on the processing

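Calls over all models and over the other lncRNA models followed the scaling. With library totals 483 models were higher and 5759 lower, with 23 and 158 among the other lncRNA models. DESeq2 called 653 models lower, 9 of them other lncRNA models. Limma on log2(TPM + 1) called 5 higher and 19 lower, and 0 and 0 among the other lncRNA models. With the same adjusted threshold edgeR called 100 and 28 of these, and DESeq2 87 and 9. An unadjusted p under 0.05 was found by limma in 3 higher and 206 lower of the other lncRNA models. For edgeR these numbers were 152 and 70, and for DESeq2 142 and 29. Limma on log2(TPM + 0.1) called 111 higher and 6823 lower, with 2 and 199 among the other lncRNA models. Leaving out 1 library gave 660 to 2138 models higher and 197 to 922 lower, and among the other lncRNA models 35 to 136 higher and 4 to 27 lower; the lowest counts were those without LARP7_RIP replicate 2. Library totals set the median of all models at -1.47, against -0.05 with TMM.

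The summed members had a log2 fold change of 1.13 with library totals, 2.04 to 3.08 with 1 library left out, and -0.11 on log2(TPM + 1) and on log2(TPM + 0.1). Gm24463 holds most of the TPM sum, and without it, an alternative chosen after seeing the data, the difference was 0.20 on both TPM scales (2.48 with TMM). In TPM with 1 added, the value also changed sign for Gm21269 (-0.24), Gm10619 (-0.24), 4933440M02Rik (-0.18), Gm24463 (-0.15), D130017N08Rik (-0.41, the longer model) and Gm2762 (-0.21). With 0.1 added it did so for the same 6 (-0.25, -0.25, -0.19, -0.15, -0.42 and -0.22) and for Gm30132 (-0.011). The causes of these changes were not tested. Of the 121 values of single members under the alternatives, 82 moved by less than the replicate spread, 26 by more and 13 changed sign. The median distance between courses, 0.225, was 0.206 to 0.257 with 1 library left out and 0.335 in TPM. The highest over the lowest TPM of the members had a median of 664 over the libraries, 161 per full length and 20.2 without Gm24463.

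The replicate block gave 2088 models higher and 1405 lower, 119 and 22 among the other lncRNA models, and 2.51 for the sum. The numbers are not stated to pair libraries, and the deviations of same-numbered libraries correlated at 0.2 over 12234 models.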
